A study of Mus musculus with 12 samples.

Results

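The comparison set the 6 hearts that carried the MHC-CELFΔ transgene against the 6 hearts of their wild type littermates, and so took in 12 of the 12 arrays of the series. All 12 hearts came from FVB/N females aged 3 weeks, and RNA of each whole heart went onto its own Illumina MouseWG-6 v2.0 array. Of the transgenic hearts, 3 were of the MHC-CELFΔ-10 line, called the severe line, and 3 of the MHC-CELFΔ-574 line, called the mild line. Each line had 3 wild type littermates. In both lines the α-myosin heavy chain promoter drives a dominant negative CELF protein that stays in the nucleus, so the transgene acts in heart muscle cells after birth and not in the other cells of the heart. Both lines are kept as hemizygotes, and the control hearts carry no transgene. The labels do not say which transgenic and wild type hearts shared a litter, so the p-values measure the spread between these animals. Line was a covariate of the fit, so that every difference given for 6 against 6 is the mean of the differences within the 2 lines.

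CELF proteins bind RNA and steer the alternative splicing of muscle transcripts, and their nuclear activity is part of the switch from fetal to adult splice forms in the heart after birth. After birth the heart muscle cell also changes its main fuel, from glucose to fatty acids, and fills up with mitochondria. Serum response factor (SRF) is a transcription factor of muscle that binds a short DNA element, the CArG box, near genes of the contractile apparatus and near immediate early genes, and HOPX and FHL2 hold its activity back.

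A probe feature is a probe or a group of probes with identical values, and its level is its log2 signal. Levels had a median of 6.58 on each of the 12 arrays after quantile normalization by the authors. The medians of the raw intensities ran from 116 to 119 on the severe transgenic arrays and from 103 to 112 on the other arrays. Cardiomyocyte markers were bright on every array, with a mean level over 11 genes from 12.97 to 13.18 in wild type and from 12.91 to 13.01 in transgenic hearts. Xist, which coats the silenced X chromosome of female cells, was present on all arrays with levels of at least 8.39, and the Y-linked genes Eif2s3y, Kdm5d and Uty stayed between 6.34 and 6.62, near the array median.

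Celf4, a member of the CELF family, had the largest difference among the named genes. Its level was lowest at 6.21, with a median of 6.37 and a highest value of 6.48, in wild type hearts, and 11.02, 11.42 and 11.63 in transgenic hearts. The groups lay far apart (adjusted p = 2.41e-15). The wild type level was below the array median and at or below the levels of the Y-linked genes, which females lack, so it was not told from background, and the difference of the group means, 5.0, is no measure of the true fold. The sequence of the transgene is not given in the sources used here, and whether this feature reads the transgene was not tested. The 3 other Celf4 features gave differences between -0.04 and 0.04. Of the other CELF and MBNL genes, Celf2 was 0.23 higher (adjusted p = 0.0256), a call lost in 8 alternatives, while Celf1, Celf3, Celf5, Celf6 and Mbnl1 to Mbnl3 had differences between -0.16 and 0.04 and were not called.

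Both lines together called 1421 of 30854 features at an adjusted p under 0.05, which is 4.61% of all features. Of these, 697 were higher (2.26%) and 724 were lower (2.35%) in transgenic hearts. Only 35 of the called features changed by 2-fold or more, 19 up and 16 down. The other 1386 changed by less than 2-fold, which is 4.49% of all features, with 678 higher and 708 lower. Under 1.5-fold lay 1267 of the called features. The median size of a called difference was 0.30 on the log2 scale and the smallest was 0.12. Features shared by both lines and features without overlap between the groups are defined below. Of those with 1 symbol that were both, Pdlim1 at 0.95 was just under the 2-fold line and Synpo2l at 1.02 just over it. Nearly all called features were expressed above the median level of all features, 1393 of 1421. With the raw files scaled to the array median in place of quantile normalization, 29.2% of the called features were higher, against 49.0% here, and the median difference of the brightest 10% of features moved from 0.0008 to -0.093.

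All 1421 called features had the same sign in both lines, which the fit favors, since a difference present in 1 line only widens the residual spread. A stricter measure asks that the smaller of the 2 within-line differences be at least 0.5 times the larger. By that measure 1042 of the 1421 were shared by both lines, 505 higher and 537 lower, and 1024 of them were under 2-fold. On 662 called features the 6 transgenic arrays did not overlap the 6 wild type arrays, out of 737 features of the array without overlap, which are 2.39% of all (1.15% higher and 1.24% lower). The effect of the transgene differed between the lines for 85 features, 0.275% of all, of which 50 were among the called ones.

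**Figure D1:**
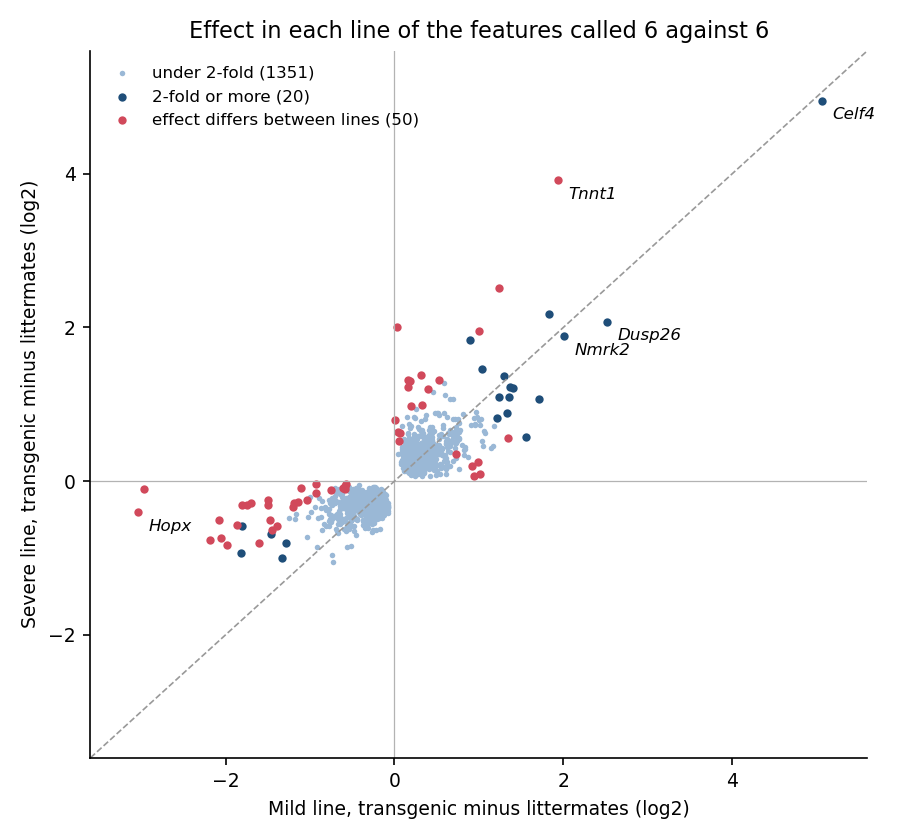
Each point is 1 of the 1421 features called 6 against 6, with its log2 difference from littermates in the mild line as x and in the severe line as y, and the dashed line marks equal effects. Most features lie in the 2 clouds close to the origin, under 2-fold and on the same side of 0 in both lines, and the 50 red points are those whose effect differed between the lines.

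Within 1 line, against its own 3 littermates, 765 features were called in the mild line (2.48% of all) and 754 in the severe line (2.44%). The 2 within-line differences share no array, but both are tested in a common fit whose variance is estimated from the arrays of both lines. A feature with a small variance is thus favored in both lines at once, so the joint calls are not an overlap of independent tests. Both called 314 features, of which 312 had the same sign, which is 41.0% of the calls of the mild line and 41.6% of those of the severe line. Of the features called in the mild line, 91.2% had the same sign in the severe line, and 92.2% of those called in the severe line had the same sign in the mild line, against 55.6% of all features. The standard error of a bright feature was 0.0526 at the median with 6 against 6. It was 0.0728 for 3 against 3 within the common fit, which is not that of separate fits. As a result 507 features were called only by the pooled comparison, 241 higher and 266 lower, none of them at 2-fold (0), with a median size of 0.22. Of these, 473 were shared by the measure above. In the other direction, 291 of the 1205 features called in at least 1 line were not called by 6 against 6.

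**Figure D2:**
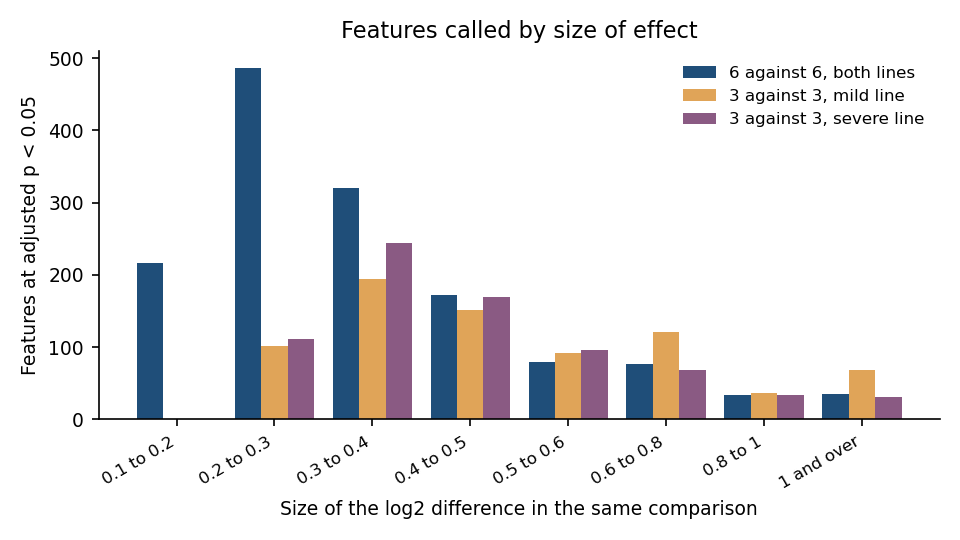
Bars count the features at an adjusted p under 0.05 on the y axis, by the size of their log2 difference on the x axis, for 6 against 6 and for each line against its own 3 littermates. Between 0.1 and 0.2 the pooled comparison called 217 features and each line alone 0, and between 0.2 and 0.3 it called 486 against 102 and 111.

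Few shared features changed by 2-fold or more on the mean of the 2 lines. That limit was set on the mean, so the difference within 1 line can lie under it. In the severe line Ano10 differed by -0.93 and Fhl2 by -0.80. Shared, without overlap and at 2-fold or more were 17 features, 13 higher and 4 lower. After Celf4 the largest increase was that of Dusp26, which encodes a dual-specificity phosphatase. Its level was 7.22, 7.36 and 7.52 (lowest, median and highest) in wild type and 9.23, 9.68 and 9.98 in transgenic hearts, a difference of 2.30 (standard error 0.095, adjusted p = 1.99e-09). Nmrk2, the muscle kinase that makes NAD precursor from nicotinamide riboside, went from 7.19, 7.36 and 7.56 to 9.05, 9.24 and 9.65, with a difference of 2.0 in the mild and 1.88 in the severe line. Rcan1, a feedback inhibitor of the phosphatase calcineurin, was higher by 2.0 on its feature at the lower level and by 1.33 on its brighter feature. Ppp1r1a, an inhibitor of protein phosphatase 1, was higher by 1.48, but by 1.0 in the mild and 1.95 in the severe line, a difference between lines that passed the test (adjusted p = 0.00619).

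The largest shared decreases at 2-fold or more were Ano10, Fhl2 and Ift81. Ano10, a member of the anoctamin family of membrane proteins, fell from 9.29, 9.40 and 10.16 to 7.80, 8.18 and 8.63, and its 2 other features had differences of -0.03 and 0.04. Ift81 encodes a subunit of the intraflagellar transport complex that builds cilia. Its level was 10.13, 10.28 and 10.37 in wild type and 8.76, 9.12 and 9.38 in transgenic hearts, a difference of -1.16 (standard error 0.061, adjusted p = 3.03e-08) with -1.33 in the mild and -1.0 in the severe line. Fhl2 is taken up with the SRF genes.

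Under 2-fold, the 10 largest shared increases without overlap between groups were Pdlim1, Klhl40, Haus8, Tceal5, Pfkp, 4833412C05Rik, Eno2, Xirp2, Uck2 and Des. Their differences ran from 0.84 to 0.95. Pdlim1 encodes a PDZ and LIM domain protein that sits on actin filaments with α-actinin. Its level was 10.79, 10.97 and 11.05 in wild type and 11.44, 11.93 and 12.14 in transgenic hearts, with 1.18 in the mild and 0.71 in the severe line. Klhl40, which stabilizes thin filament proteins in muscle, went from 7.39, 7.66 and 7.72 to 8.11, 8.62 and 8.64. Des encodes desmin, the intermediate filament of muscle, and rose from 12.40, 12.51 and 12.85 to 13.18, 13.42 and 13.57 (difference 0.84, standard error 0.078, adjusted p = 1.23e-05). Xirp2, an actin-binding protein of the intercalated disc, rose from 8.27, 8.68 and 8.75 to 9.01, 9.40 and 9.95.

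Of the same 10 genes, Pfkp and Eno2 encode forms of glycolytic enzymes that are not the main ones of muscle. Pfkp, the platelet form of phosphofructokinase, rose from 8.05, 8.23 and 8.38 to 8.99, 9.12 and 9.21, with a difference of 0.90 (standard error 0.058, adjusted p = 4.27e-07), and Eno2, the neuronal form of enolase, from 7.14, 7.17 and 7.30 to 7.65, 8.04 and 8.53. Uck2 encodes a uridine-cytidine kinase of the pyrimidine salvage pathway and was higher by 0.84, by 0.81 in the mild and 0.88 in the severe line. Haus8, a subunit of the augmin complex of the spindle, was higher by 0.92, and Tceal5, related to transcription elongation factor A, by 0.90 with the transgenic arrays between 7.92 and 8.05.

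The 10 largest shared decreases under 2-fold were Gpr22, Gpt, Cryba4, Fgf16, Cpt2, Cish, Sh3rf2, Mlf1, Acot1 and Slc25a20, with differences from -0.89 to -0.66. Gpr22, an orphan G protein-coupled receptor of heart and brain, went from 8.85, 9.18 and 9.46 to 8.12, 8.28 and 8.39. Gpt encodes alanine aminotransferase, which links alanine to pyruvate. Its transgenic arrays lay in a narrow range, 8.27, 8.32 and 8.38, against 8.86, 9.08 and 9.29 in wild type, a difference of -0.75 (standard error 0.054, adjusted p = 1.03e-06). Fgf16, a growth factor of the heart, fell from 7.53, 7.64 and 7.77 to 6.75, 6.93 and 7.12. Cish, an inhibitor of cytokine signaling, passed in the mild line taken alone (-0.90, adjusted p = 0.003) and missed the threshold in the severe line alone (-0.48, adjusted p = 0.15). Mlf1, myeloid leukemia factor 1, fell by 0.67 in the mild and by 0.68 in the severe line. Cpt2, Slc25a20 and Acot1 belong to fatty acid oxidation.

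**Figure D3:**
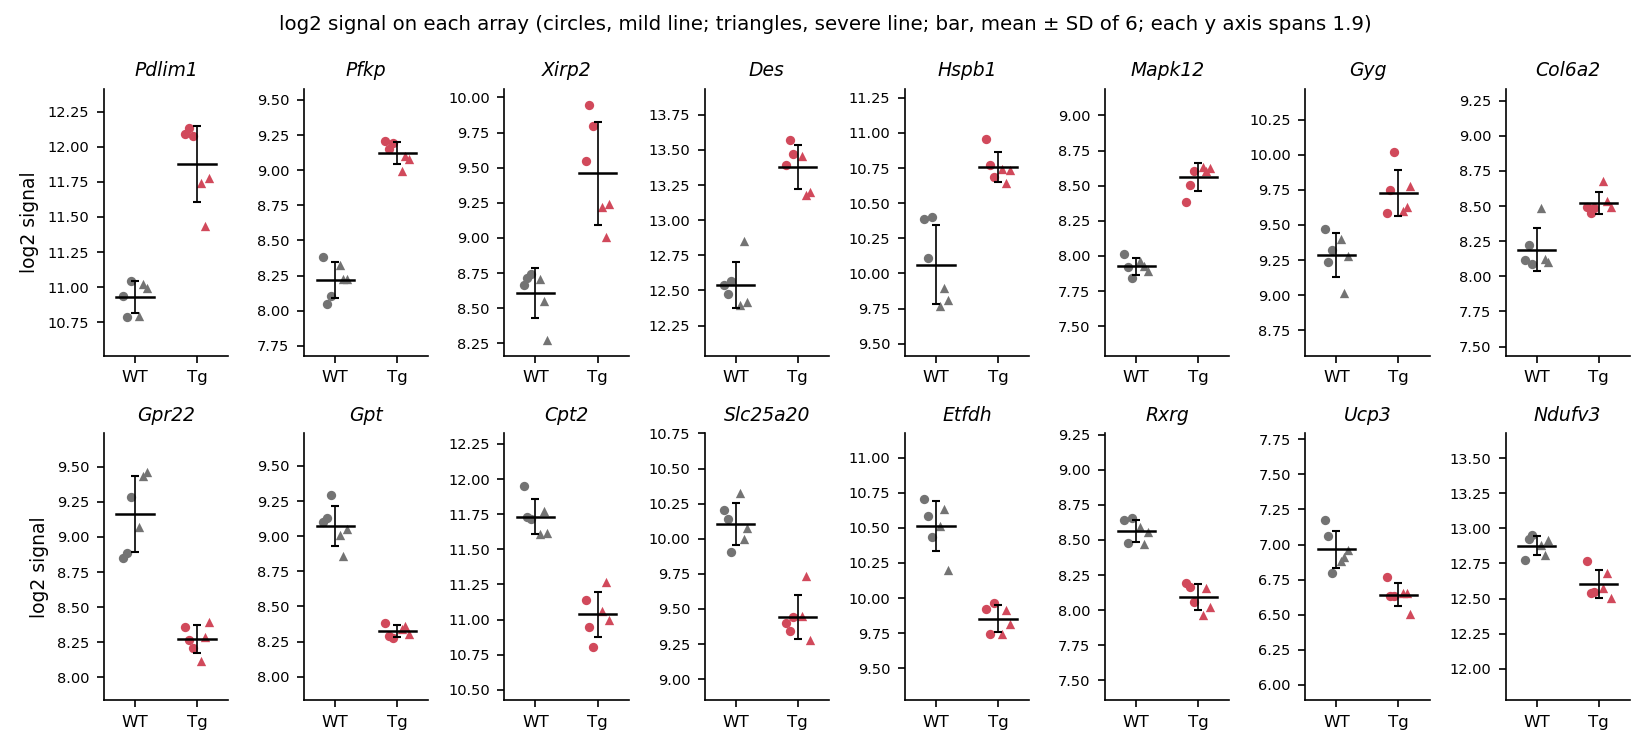
Each panel gives the log2 signal of 1 gene on the 12 arrays, wild type (WT) and transgenic (Tg) on the x axis, with circles for the mild line, triangles for the severe line and the mean ± SD of 6 arrays as a bar. Every y axis spans the same range on the log2 scale. The upper row holds genes that were higher and the lower row genes that were lower in transgenic hearts, and of these 16 genes only Col6a2 overlaps between the groups.

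To describe functions, 43 gene lists of 888 measured genes were used, each gene by its brightest feature. Over all 19013 genes, 595 were called higher (3.13%) and 608 lower (3.2%), with a median difference of -0.0007. Called genes were more frequent at high levels, with 5.17% higher and 5.33% lower among genes above the median level and 11.4% higher and 11.8% lower among the brightest 10% of genes, and lists of muscle and mitochondrial genes are to be read against those shares. In the 43 lists 88 genes were called higher and 99 lower, and 170 of these were under 2-fold.

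**Figure D4:**
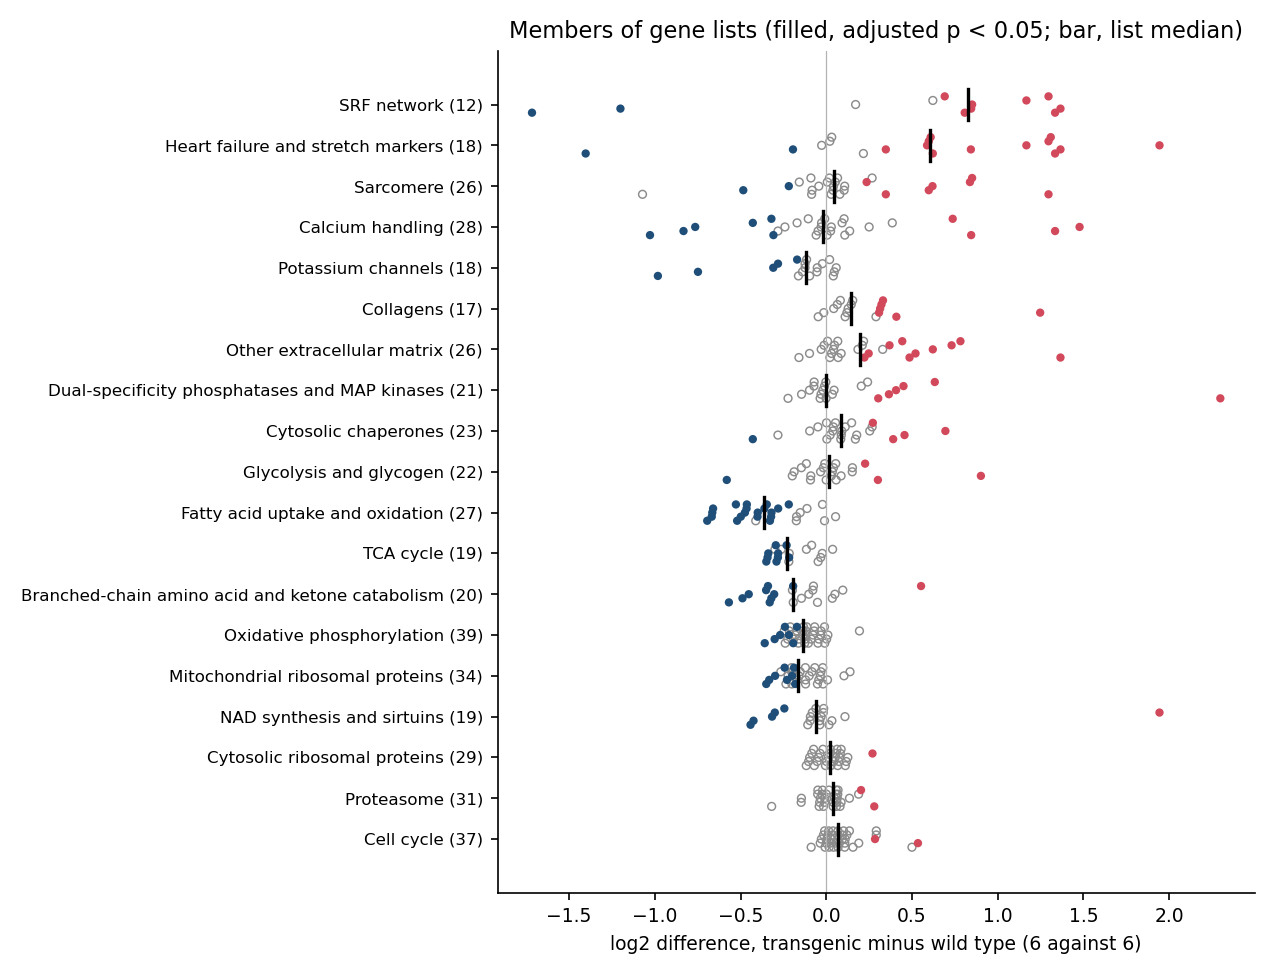
Each point is a gene of the list named on the y axis, with its number of measured genes, at its log2 difference of transgenic minus wild type on the x axis. Filled points were called at an adjusted p under 0.05, red for higher and blue for lower, and the bar is the list's median. Fatty acid oxidation is shifted to the left as a list, while sarcomere and calcium genes spread to both sides of 0.

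The list of the SRF network was chosen by the study on these same arrays, so its direction is not independent evidence. Of its 12 genes 8 were called higher and 2 lower, with a median of 0.83. Acta1, skeletal α-actin, went from 13.01, 13.21 and 13.39 in wild type to 14.31, 14.52 and 14.75 in transgenic hearts, with 1.37 in the mild and 1.22 in the severe line (difference 1.30, standard error 0.068, adjusted p = 3.03e-08). Casq1 (0.85), Nppb (1.17), Egr1 (0.85), Rcan1 (1.33), Fhl1 (0.69), Tpm2 (0.81) and Ccn2 (1.37) were the others called higher, and Ccn2, connective tissue growth factor, changed by 0.89 in the mild and by 1.84 in the severe line. Srf itself had levels of 9.07, 9.19 and 9.36 in wild type and 9.19, 9.40 and 9.62 in transgenic hearts. The groups overlapped and the difference of 0.17 was not called (adjusted p = 0.258).

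Both inhibitors of SRF were lower, to unequal degrees in the 2 lines. Fhl2 fell from 13.12, 13.22 and 13.36 to 11.48, 12.04 and 12.52, by 1.6 in the mild and by 0.80 in the severe line. Hopx levels were 11.34, 11.48 and 11.64 in wild type hearts, 8.44 to 8.71 in the mild and 10.87 to 11.19 in the severe transgenic hearts. Its difference of -1.72 is a mean of -3.03 and -0.40, and the fit with a variance trend did not call it (adjusted p = 0.0715).

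Of 22 immediate early genes, whose transcription follows a stimulus within minutes, 3 were called higher and 0 lower, with a median of 0.16. All 3 were Egr genes, which encode zinc finger transcription factors. Egr1 was higher by 0.85, Egr2 by 0.67 and Egr3 by 0.56. Egr2 went from 6.95, 7.01 and 7.12 to 7.32, 7.67 and 8.07, with no overlap. Fos, at 0.62, just missed the threshold (adjusted p = 0.0506), and Nr4a1, Nr4a2 and Nr4a3 had differences of 0.03 or less. Of 18 other SRF targets 5 were higher (Ccn1, Myl9, Actn1, Pdlim7 and Tagln) and 0 lower, with a median of 0.06. With median scaling 2 of the 18 were called. Ccn1 and Pdlim7 were shared by both lines. Not shared were Myl9, with 0.09 in the mild and 0.72 in the severe line, Actn1 (0.17 and 0.56) and Tagln (0.11 and 0.52). Myl9 lost its call in 10 alternatives, and the other Pdlim7 feature differed by 0.09 and was not called.

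CArG boxes were looked for in RefSeq promoter windows on build GRCm38.p6, from 250 bases before to 50 bases after each transcription start, on both strands. They occurred in 268 of 18650 windows of genes on the array (1.44%), in 16 of 622 windows of genes called higher (2.57%) and in 10 of 639 windows of genes called lower (1.56%). Of the genes with values given here, 4833412C05Rik, Ampd3, Herpud1, Myl7 and those printed below had one. The windows of 30 bases are shown because these genes were called and belong to the SRF network, its inhibitors or targets of SRF, with the CArG box in capitals, read along the strand of the gene. A match describes the letters and not a site in use.
Acta1 (chr8:123894829-123894858, minus strand, difference 1.30): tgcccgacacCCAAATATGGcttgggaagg
Egr2 (chr10:67537484-67537513, plus strand, difference 0.67): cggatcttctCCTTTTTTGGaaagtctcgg
Egr2, other start (chr10:67537787-67537816, plus strand): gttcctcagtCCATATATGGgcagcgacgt
Fhl1 (chrX:56779571-56779600, plus strand, difference 0.69): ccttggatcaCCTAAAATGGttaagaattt
Myl9 (chr2:156775293-156775322, plus strand, difference 0.41): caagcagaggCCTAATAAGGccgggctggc
Hopx (chr5:77115187-77115216, minus strand, difference -1.72): taacccgagtCCAAATAAGGaagctgggga
Fhl2 (chr1:43163973-43164002, minus strand, difference -1.20): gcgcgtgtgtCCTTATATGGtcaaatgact
Fhl2, other start (chr1:43196838-43196867, minus strand): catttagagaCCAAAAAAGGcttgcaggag

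Genes of the contractile apparatus changed to both sides. Of 26 sarcomere genes 7 were called higher and 2 lower, with a median of 0.05. Beside Acta1, Des and Xirp2, those called higher were Ankrd1 (0.60), Myot (0.62), Myh7 (0.35) and Actn2 (0.24). The latter were not shared by the measure above. Ankrd1 differed by 0.25 in the mild and by 0.94 in the severe line and Myot by 0.99 and 0.25. For Myh7 the values were 0.17 and 0.52, and for Actn2 0.34 and 0.14. Those called lower were Tcap (-0.48), the titin cap, and Tmod1 (-0.22), which caps the thin filament. The main adult genes Myh6, Myl2, Myl3, Tnni3, Actc1, Ttn and Mybpc3 had differences between -0.09 and 0.10 and were not called. Of 17 fetal and skeletal isoforms 5 were higher and 3 lower. Tnnt1, slow skeletal troponin T, rose from 8.65, 8.97 and 9.17 to 10.43, 11.87 and 13.05, by 1.94 in the mild and 3.92 in the severe line. Myl1, an essential light chain of skeletal and atrial muscle, rose from 11.54, 12.01 and 12.16 to 12.61, 13.09 and 13.51, by 1.33 and 0.88. Tpm2 (0.81), Mybpc2 (0.44) and Myh7 were the other increases. The decreases were Myl7 (-1.06), the atrial regulatory light chain, Myl4 (-0.40), the atrial essential light chain, and Tnni2 (-0.48), fast skeletal troponin I. Myl7 differed by -1.81 in the mild and by -0.31 in the severe line and Myl4 by -0.70 and -0.10, and the call of Myl7 was lost with the replicate block and with trend and robust variances. Both are atrial markers, whose mean level was 9.55 to 9.65 in mild transgenic hearts and 9.96 to 10.15 in wild type hearts, and the part of the atrial share in these values was not tested.

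Of 28 calcium handling genes 4 were called higher and 6 lower, with a median of -0.02. The 6 lower ones act in the storage and transport of calcium in the cardiac muscle cell. Ryr2, the release channel, fell by 0.76, Pln, phospholamban, by 0.83, Sln, sarcolipin, by 1.03, Hrc, a calcium-binding protein of the reticulum, by 0.43, Slc8a1, the sodium-calcium exchanger, by 0.32, and Atp2a2, the SERCA2 pump, by 0.31. Ryr2 differed by -1.20 in the mild and by -0.33 in the severe line, and Atp2a2 by -0.58 and -0.04, and for both the difference between lines passed the test (adjusted p = 0.000799 and 0.0138). Pln, with -1.17 and -0.49, did not pass it (adjusted p = 0.232). Sln, which is also an atrial marker, differed by -1.74 in the mild and by -0.31 in the severe line and lost its call in 3 alternatives, without the line covariate, with the replicate block and with trend and robust variances (highest adjusted p = 0.0599). As for Myl7, the part of the atrial share in its value was not tested. Not every feature of these genes moved: the other Ryr2 feature differed by -0.09 and was dimmer, the other Slc8a1 feature by -0.01, and the other Atp2a2 features by 0.01 and -0.56. The 4 higher ones were Casq1, the skeletal calsequestrin, Ppp1r1a, Rcan1 and Sypl2, of which Casq1 was called in each line with groups that overlap, and the other Sypl2 features differed by -0.05 and 0.09.

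Of 18 potassium channel genes 0 were called higher and 5 lower, with a median of -0.12. Kcnv2, a modifier subunit, fell from 7.58, 8.04 and 8.35 to 6.72, 7.07 and 7.37. Kcnd2 (-0.75) and Kcnip2 (-0.28) make up the transient outward channel. Abcc9 (-0.31) is a regulatory subunit of the KATP channel, and Kcnj3 (-0.17) a subunit of the acetylcholine-gated channel. Kcnv2 differed by -1.40 in the mild and by -0.57 in the severe line, and Kcnd2 by -1.03 and -0.47, so neither was shared. Kcnj3, at a mean level of 6.79, differed by -0.26 in the mild and by -0.08 in the severe line and was not shared either. In the severe line alone Kcnd2 and Kcnip2 were not called (adjusted p = 0.0703 and 0.204), while Abcc9 was called in both lines. Among 8 sodium, chloride and pacemaker channel genes 0 were called, with 7 of 8 below 0. At the cell junctions Gja1, connexin 43, fell from 12.99, 13.20 and 13.64 to 12.25, 12.67 and 13.03, and 2 transgenic arrays lay inside the wild type range. Gja5, another connexin (-0.47), and the desmosomal cadherin Dsg2 (-0.42) were lower as well. The other 9 of the 13 junction genes, desmin apart, were not called. Gja1 differed by -0.82 in the mild and by -0.34 in the severe line, and Gja5 by -0.69 and -0.25. Neither was shared or called in the severe line alone, while Dsg2 was called in both lines. Gja5 is also an atrial marker, and the part of the atrial share in its value was not tested.

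Of 18 markers of heart failure and stretch 12 were called higher and 2 lower, with a median of 0.60. This list was chosen with earlier results of these data known. The study reported at least Nppb, Acta1, Ccn2, Timp1 and Rcan1 of this list as changed on the same arrays. Nmrk2 (2.0), Tnfrsf12a (1.41) and Ces1d (-1.98) also passed the study's limit of 2-fold in the mild line here. The direction of the list is therefore not independent evidence. Nppb, brain natriuretic peptide, was higher by 1.24 in the mild and by 1.09 in the severe line, whereas Nppa, atrial natriuretic peptide, differed by 0.03 and was not called. Tnfrsf12a, the receptor of the cytokine TWEAK, was higher by 1.31, Lgals3, galectin-3, by 0.59 and Tgfb2, transforming growth factor β2, by 0.61. The lower ones were Ces1d, a carboxylesterase that fell by 1.40, and Il33, which fell by 0.19.

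Genes of the extracellular matrix were called in 1 direction. Of 17 collagens 6 were higher and 0 lower, with 15 of 17 above 0 and a median of 0.15. Col8a1, a short-chain collagen, rose from 8.40, 8.53 and 8.81 to 9.64, 9.71 and 10.13, by 1.04 and 1.46. The other 5, Col15a1 (0.41), Col6a2 (0.33), Col16a1 (0.32), Col5a1 (0.31) and Col6a1 (0.31), were under 1.5-fold. Col15a1 lost its call in 5 alternatives, and with median scaling 2 of the 17 were called. The fibrillar collagens Col1a1 (0.29, adjusted p = 0.0786) and Col3a1 (0.15) were not called. Of 26 other matrix genes 10 were higher and 0 lower, with a median of 0.20. Beside Ccn2 and the elastic fibre proteins Mfap4 (0.78) and Mfap5 (0.73), they were Timp1, Bgn, Lox, Mmp14, Loxl1, Tnc and Mmp2, with differences from 0.22 to 0.62, of which Timp1 lost its call in 8 alternatives. The mean level of 13 fibroblast markers was 8.96 to 9.11 in wild type and 9.12 to 9.30 in transgenic hearts, and 2 of them, Mfap4 and Fbln2, were called. In RNA of a whole heart more cells of a type and more RNA per cell cannot be told apart, and the part of fibroblast number in these values was not tested.

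The lists of fatty acid uptake and oxidation, TCA cycle, branched-chain amino acid and ketone catabolism, oxidative phosphorylation and mitochondrial ribosome held 52 of the 99 decreases. Most of their genes encode mitochondrial proteins, but some, such as Fabp3, Slc27a1 and Acot1, act in the cytosol or at the cell membrane. In these 5 lists, with 137 genes measured, 52 were called lower and 1 higher, all of them under 2-fold, and 125 of the 137 had a difference below 0. With median scaling, which moves bright genes down, each of these lists held at least as many decreases, 10, 19, 10, 11 and 14 in oxidative phosphorylation, fatty acids, TCA cycle, branched-chain catabolism and mitochondrial ribosome. The median difference of these 137 genes was -0.19, beside 0.0008 for the brightest 10% of features.

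Of the 43 lists, fatty acid oxidation had the largest number of members called. Of 27 genes of uptake and oxidation 19 were called lower and 0 higher, with a median of -0.36, and 26 of 27 were below 0. The steps called run from entry to the last step of the spiral. Fabp3, the fatty acid binding protein of heart, fell by 0.46 and Slc27a1, a transporter, by 0.47. Cpt2, which rebuilds acyl-CoA inside the mitochondrion, had levels of 11.61, 11.72 and 11.95 in wild type and 10.80, 11.03 and 11.27 in transgenic hearts, a difference of -0.69 (standard error 0.074, adjusted p = 3.52e-05). Slc25a20, the carnitine-acylcarnitine carrier, fell from 9.91, 10.11 and 10.33 to 9.28, 9.42 and 9.74, by 0.69 in the mild and by 0.64 in the severe line.

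The dehydrogenases Acadvl (-0.50), Acadm (-0.33) and Acads (-0.28) for very long, medium and short chains were lower, and Acadl for long chains (-0.11) was not called. Further along the spiral Echs1 (-0.40), Hadhb (-0.36) and Acaa2 (-0.52) were lower, as were Decr1 (-0.53), Eci1 (-0.40) and Ech1 (-0.46), which handle unsaturated chains. Etfa, Etfb and Etfdh pass the electrons on to the respiratory chain, and Etfdh fell from 10.20, 10.55 and 10.70 to 9.74, 9.87 and 9.97, while its 2 dimmer features differed by -0.10 and -0.02. Acot1, a thioesterase, fell by 0.67 on its brighter feature and its other feature differed by -0.01. Cd36 (-0.02), Cpt1a (0.05), Cpt1b (-0.15), Hadha (-0.17) and Hadh (-0.01) were not called. Pdk4, a kinase that shuts off pyruvate dehydrogenase, differed by -0.92 in the mild and by 0.10 in the severe line and was not called. On 15 of the 27 genes the groups did not overlap, beside 2.39% of all features. That share was not taken for bright genes alone.

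**Figure D5:**
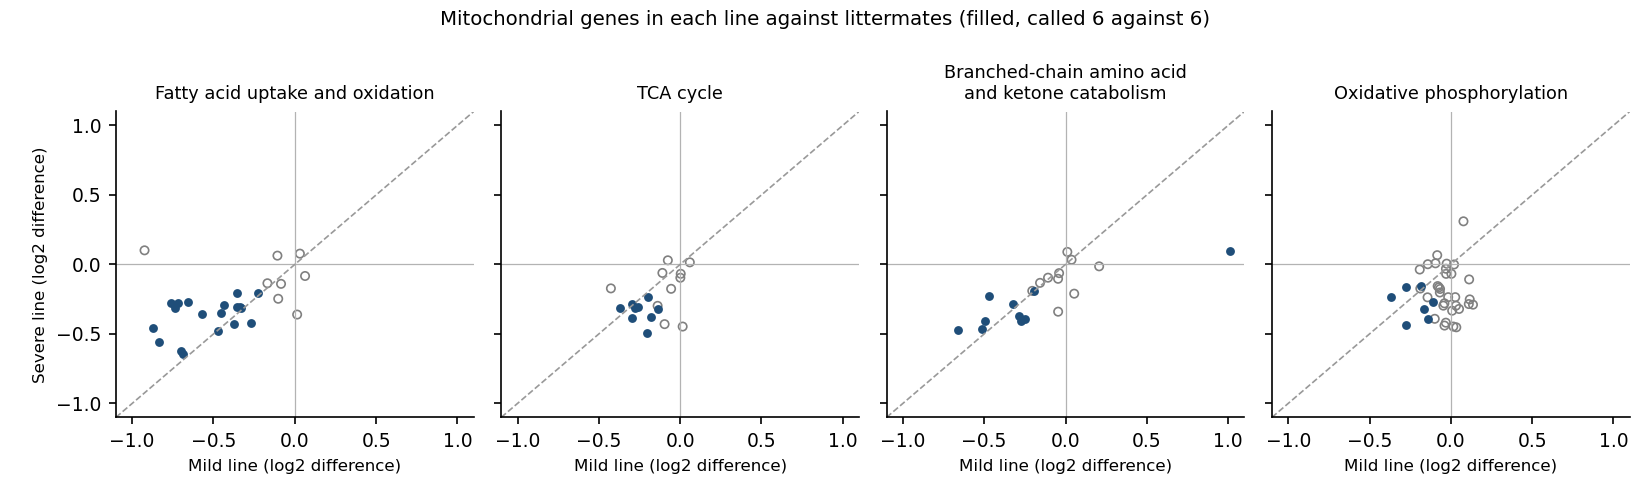
Each point is a gene, with the mild line's log2 difference from littermates on the x axis and the severe line's on the y axis, and filled points were called 6 against 6. Fatty acid genes lie low in both lines (medians -0.37 and -0.30), while genes of oxidative phosphorylation lie near 0 in the mild line and below 0 in the severe line (medians -0.04 and -0.24).

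Of 19 genes of the TCA cycle and pyruvate dehydrogenase 9 were called lower and 0 higher, with a median of -0.23. Citrate synthase, Cs, went from 12.01, 12.19 and 12.35 to 11.74, 11.82 and 11.996, without overlap and with -0.37 in the mild and -0.31 in the severe line, and neither line alone called it. Fh1 (-0.35), Dlst (-0.34), Suclg2 (-0.29), Idh3a (-0.29), Dld (-0.28), Pdha1 (-0.28), Mdh2 (-0.23) and Suclg1 (-0.22) were the others. The 3 other Dlst features had differences between -0.25 and 0.04 and were not called. In the severe line alone 8 of the 19 were called lower and in the mild line alone 1.

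In the breakdown of branched-chain amino acids and ketones 9 of 20 genes were lower and 1 was higher, with a median of -0.19. Ppm1k, the phosphatase that switches on the branched-chain dehydrogenase, fell from 8.72, 8.90 and 8.93 to 8.11, 8.30 and 8.46, by 0.66 in the mild and by 0.47 in the severe line. The dehydrogenase subunits Bckdhb (-0.49) and Dbt (-0.35) were lower, and so were Mccc2 (-0.45) and Ivd (-0.33) of the leucine branch and Aldh6a1 (-0.34) and Hibadh (-0.32) of the valine branch. Bdh1, which oxidizes the ketone body β-hydroxybutyrate, was the one called higher, by 1.01 in the mild and 0.09 in the severe line, a difference between lines that passed the test (adjusted p = 0.0113), and its call 6 against 6 was lost in 9 alternatives.

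The respiratory chain itself held fewer calls. Of 39 genes of oxidative phosphorylation 7 were called lower and 0 higher, with a median of -0.13, and 23 of 39 had the same sign in both lines. The 7 were Sdhd (-0.36), Uqcrq (-0.30), Ndufs4 (-0.27), Cyc1 (-0.24), Uqcrc1 (-0.22), Ndufv2 (-0.19) and Sdhc (-0.17). None of the 39 (0) belonged to the features whose effect differed between lines by the interaction test. Sdhd lost its call in 4 alternatives, Ndufs4 in 8, Cyc1 in 12 and Uqcrq in 1. Over the alternatives the number of the 39 called lower ran from 3 to 10, the latter with median scaling. Ndufv3 of complex I, not a member of the list, fell by 0.27 in the mild and by 0.28 in the severe line, from 12.78, 12.90 and 12.95 to 12.50, 12.56 and 12.76. Of 34 mitochondrial ribosomal proteins 8 were lower and 0 higher, with a median of -0.16 and Mrps9 (-0.35) and Mrps35 (-0.33) as the largest. The other Mrps9 feature differed by 0.0034 and the other Uqcrq feature by 0.0115, and neither was called. Of 29 cytosolic ribosomal proteins 1 was called, Rpl3, which lost its call in 14 alternatives, with a list median of 0.02.

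Regulators of mitochondrial genes showed few calls. Of 17 nuclear receptors and coactivators 3 were lower and 0 higher. Rxrg, a retinoid X receptor, fell from 8.47, 8.57 and 8.66 to 7.96, 8.11 and 8.19, by 0.45 in the mild and by 0.49 in the severe line. Tfam, which maintains mitochondrial DNA, fell by 0.21, and Esrra, estrogen-related receptor α, by 0.19, a call lost in 13 alternatives. Ppara (0.00) and Esrrg (-0.09) were not called, nor were Ppargc1a (-0.37, adjusted p = 0.242) and Ppargc1b (-0.26, adjusted p = 0.304), the coactivators of mitochondrial genes. The motif TNAAGGTCA, an element that estrogen-related receptors bind, stood in 1 of 48 promoter windows of the genes called lower in these 5 metabolic and mitochondrial lists (2.08%) and in 0.954% of all windows.

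Around the mitochondrion, Sirt3 (-0.32) and Sirt5 (-0.44), the deacylases of the organelle, were lower, as were the NAD-making enzymes Naprt (-0.42) and Nampt (-0.30), while Nmrk2 of the same list was higher. In all, 5 of 19 NAD and sirtuin genes were lower and 1 higher. Ucp3, uncoupling protein 3, fell from 6.80, 6.94 and 7.18 to 6.51, 6.64 and 6.77, a decrease that neither line alone called. Its transgenic levels reached those of the Y-linked genes, so the size of the fall is not resolved here. The mitochondrial chaperone Hspd1 was lower by 0.43.

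Glycolysis did not move as a list. Of 22 genes 3 were called higher (Pfkp, Hk1 and Pfkl) and 1 lower (Phkg1, a subunit of phosphorylase kinase), with a median of 0.01. Hk1 lost its call in 3 alternatives, with median scaling, with the replicate block and without transgenic mild replicate 2. Gapdh differed by 0.15 and was not called 6 against 6 (adjusted p = 0.398), but it was higher in the mild line against its own littermates (0.38, adjusted p = 0.00335), with -0.08 in the severe line. Gyg, glycogenin, the primer of glycogen synthesis, was the increase with the smallest p among those that needed both lines. It rose from 9.01, 9.30 and 9.47 to 9.58, 9.69 and 10.02, by 0.44 in each line (adjusted p = 0.0024, against 0.051 and 0.053 within the lines). Among genes of high-energy phosphate, Ckb, the brain form of creatine kinase, was higher by 0.69 and the creatine transporter Slc6a8 by 0.54, whereas the muscle form Ckm (-0.19) was not called.

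Beside Gyg, the increases named for the smallest p among those seen only with 6 against 6 were Nt5c, Tuba1b, St7l and Col6a2, and the decreases were Ucp3, Il33, Ndufv3, Pex19 and Snn. Their differences ran from 0.22 to 0.44 and from -0.32 to -0.19. In each the 2 lines differed by at most 0.03 on the log2 scale. The rule of choice favors this, since it took shared changes with the smallest pooled p that neither line alone called. Their likeness is thus no separate result. Nt5c, a nucleotidase, went from 7.88, 8.15 and 8.39 to 8.18, 8.36 and 8.55, so its groups overlapped, and each line's transgenic arrays lay above those of its own littermates. Without the line covariate Nt5c and Tuba1b were not called. Tuba1b, an α-tubulin, was higher by 0.37 at a level of 12.78 to 13.62. With median scaling Nt5c, Tuba1b and St7l were not called, and the other St7l feature differed by 0.0001. Pex19, needed to build peroxisomes, was lower by 0.27, with 2 transgenic arrays inside the wild type range.

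Genes of stress and signaling gave smaller sets. Of 23 chaperones of the cytosol and mitochondrion 4 were higher, all of them small heat shock proteins, and Hspd1 was lower. Hspb1 rose from 9.77, 10.00 and 10.40 to 10.64, 10.74 and 10.96, and Hspb3 (0.46), Hspb7 (0.39) and Hspb6 (0.27) were higher as well, of which Hspb7 lost its call in 4 alternatives, while Cryab (0.27) was not called. Of 21 dual-specificity phosphatases and MAP kinases 6 were higher and 0 lower, with a median of -0.001. Beside Dusp26 they were Mapk12, the p38γ kinase of striated muscle, which rose from 7.84, 7.92 and 8.01 to 8.38, 8.61 and 8.64, and Dusp8, Dusp27, Dusp6 and Dusp3, with differences from 0.30 to 0.45, of which Dusp8 lost its call in 13 alternatives.

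Of 30 genes of TGF-β and BMP signaling 3 were higher, Tgfb2, Tgfb3 (0.43) and Fstl1 (0.36), and 0 lower. Of 19 genes of IGF and insulin signaling 3 were higher, Igf1 (0.30), its receptor Igf1r (0.36) and the binding protein Igfbp7 (0.42), and 1 was lower, Pik3r1 (-0.58), the regulatory subunit of PI 3-kinase. Of the genes named from the list of adrenergic, angiotensin, endothelin and natriuretic peptide signaling, Edn1, endothelin 1 (0.54), and Ace, angiotensin-converting enzyme (0.35), were higher. Agtr1a, the angiotensin receptor (-0.64), and Corin, the protease that activates natriuretic peptides (-0.99), were lower. Agtr1a differed by -0.94 in the mild and by -0.34 in the severe line and Corin by -1.47 and -0.51, so neither was shared. Edn1 was called in neither line alone, and Ace only in the severe line. Of 30 other splicing regulators 1 was higher, Rbfox2 (0.22), and 2 were lower, Rbfox1 and Qk (-0.32). Rbfox1 fell by 1.5 in the mild and by 0.31 in the severe line. The calls of Rbfox2 and Qk were lost in 14 and 11 alternatives. The other features of Rbfox2 and Qk differed by -0.08 and -0.03, and those of Igf1r by -0.02 and 0.10, without a call.

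Several lists held hardly any call. Among 31 proteasome genes 2 were higher, among 20 genes of endoplasmic reticulum folding 1 was lower, among 26 of the integrated stress response 1 was higher, and among 16 clock genes 0 were called. Of 37 cell cycle genes 2 were higher, Cdkn1a, an inhibitor of the cycle, and Ccnd3, and 30 of 37 had differences above 0, with a median of 0.07.

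Among 14 endothelial, 13 macrophage, 8 lymphoid, 5 erythroid and 8 epicardial markers 0 were called, and so were 0 of 7 thymus and 6 lung markers. Of 11 smooth muscle and pericyte markers 2 were higher, Cspg4 (0.45) and Tagln (0.31), and of 6 Schwann cell and neuronal markers 1 was higher, Uchl1 (0.70). Of 12 skeletal muscle markers Pvalb was higher (0.35) and Tnni2 lower (-0.48), and of 8 adipocyte markers Lpl, lipoprotein lipase, was lower (-0.39). The mean level of the macrophage markers was 8.41 to 8.61 in wild type and 8.39 to 8.57 in transgenic hearts. Of 12 atrial markers 6 were lower and 1, Myl1, was higher. The mean level of the atrial list was 9.96 to 10.15 in wild type, 9.95 to 10.03 in severe and 9.55 to 9.65 in mild transgenic hearts. Myl7, the atrial regulatory light chain, and Sln differed by -1.81 and by -1.74 in the mild line and by -0.31 each in the severe line, and both differences between lines passed the test (adjusted p = 0.00814 and 0.00736). The share of atrial tissue in each heart sample was not tested. Of 9 ventricular markers 5 were lower, Fhl2, Pln, Gja1, Lbh and Kcnip2, while Myl2 (0.07) and Myl3 (0.05) were not called, and the mean level of the list was 11.05 to 11.27 in wild type and 10.54 to 10.92 in transgenic hearts.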

How the data were processed

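Total RNA of 12 whole hearts was measured on 12 arrays. The authors deposited raw files with 1 bead summary intensity per probe, named GenomeStudio and limma without versions, and deposited a table of background-corrected, quantile-normalized log2 values. How the background was treated on export is not given in the sources used here. Within each array the ranks of both kinds of file were the same. Precision is limited by there being 12 arrays.

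The 45281 probe IDs (34885 with 1 gene symbol, 18 with several, 10378 with none) held 30854 distinct features, since IDs whose values did not differ on any array were merged (8966 features hold over 1 ID). Of these, 22203 have 1 symbol, for 19013 genes. The deposited log2 values were fitted with limma 3.58.1 in R 4.3.3, with line and genotype as terms, empirical Bayes variances and Benjamini-Hochberg adjustment over all features. Features at an adjusted p under 0.05 are called at any fold. Effects within lines and their difference (the interaction) come from a fit with 4 groups, whose variance is estimated from all 12 arrays. The fit was tested on simulated data.

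Named were the 10 largest shared changes each way under 2-fold without overlap and above the median level, the 5 largest each way at 2-fold or more, the 5 smallest p-values each way among shared changes that neither line alone called, and up to 4 called genes of each list. Other list members were named after their values were seen. The comparison, lists and rules were chosen with earlier results of these data known. Symbols come from the platform annotation and promoters from RefSeq, which held 15178 of the genes. Alternatives were raw intensities with normexp (offset 50) or no background correction, median scaling, no line term, a block by replicate number, a filter on level, trend and robust variances, array weights, other treatment of duplicate features, stricter thresholds, each line alone, and leaving out each array.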

Additional observations from a re-analysis of the deposited data

Results flagged for a closer look

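For 13 genes named by the naming rule the effect of the transgene differed between the lines by the interaction test. The severe line's difference minus the mild line's, on the log2 scale, was 2.63 for Hopx, 1.98 for Tnnt1, 1.495 for Myl7, 1.43 for Sln, 1.19 for Rbfox1, 1.16 for Ces1d, 0.96 for Corin, 0.95 for Ppp1r1a, 0.80 for Fhl2 and 0.78 for Gpx3, an antioxidant enzyme. It was -0.92 for Bdh1, -0.88 for Nqo1, a quinone reductase, and -0.74 for Myot. Of the other genes with values given above, Sypl2 (1.16), Ryr2 (0.87) and Atp2a2 (0.53) passed the same test. Pooled differences of these genes are means of unequal effects.

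In 17 groups of 6 arrays, of 310 groups tested, 1 array stood apart from the other 5, and chance marks about 1 group in 20. Of the wild type arrays that stood apart, all 13 were littermates of the severe line. Wild type severe replicate 1 was high for Col15a1 (10.26), Col6a2 (8.49), Sirt5 (8.96) and Itga7 (9.52) and low for Mrps9 (10.85), Corin (11.47) and Angpt1 (6.89). Wild type severe replicate 2 was high for Ampd3 (9.55), Mrps35 (10.13), Uck2 (9.22) and Snn (8.49). Wild type severe replicate 3 was low for Myl1 (11.54) and Myl7 (11.83). Among transgenic arrays, severe replicate 3 was high for Egr3 (8.09) and low for Klhl40 (8.11), severe replicate 2 was low for Xist (8.39), and mild replicate 3 was low for Mrps9 (10.67). Levels are log2 signals.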

How the results depend on the processing

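No called feature changed sign under the alternative values, models, lines or left-out arrays, and of 142 called named features 100 kept the call under all alternatives. Counts of called features differed as follows from 1421 in all and 1386 under 2-fold. With each probe ID counted they were 2724 and 2675, since duplicates enter more than once. Within the mild line alone they were 765 and 697, and within the severe line alone 754 and 723. These are differences of 3 against 3 arrays, tested with a variance from both lines. At an adjusted p under 0.01 they were 794 and 761, and asking for 2-fold, as the study did, left 35. Leaving out each array gave 1081 to 1335 called features and 1051 to 1300 under 2-fold. Over the other alternatives (values, scaling, variance, filter, line term) the count ran from 1055 to 1574. The numbers of the replicates did not pair the samples: deviations of arrays of the same line and number correlated between -0.38 and 0.11 over features. With the replicate block 1055 features were called, 1001 of them also without it, and the effect differed between lines for 54 features against 85. Without single arrays 54 to 90 features differed between lines, the fewest without transgenic mild replicate 3. Median scaling lowered the share of higher calls to 29.2%, and it alone ended the calls of Actn1, Pdlim7, Col16a1, Pfkl, Psmd13, Igfbp7 and St7l. Levels near the array median have no detection call, so small folds of dim genes are not resolved here.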
